A study of Mus musculus with 51 samples.

Results

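The mitochondrial ribosomal protein genes are the nuclear genes whose symbols begin with Mrpl, for proteins of the large subunit, or Mrps, for proteins of the small subunit. They were chosen by symbol alone, as all probe sets that carry a single such symbol. The rule found 127 probe sets of 74 genes among 22626 probe sets and 12393 singly named genes. By name 47 of them belong to the large subunit and 27 to the small subunit. In the assembled particle 49 sit in the large subunit and 24 in the small one, since Mrps18a and Mrps30 are large-subunit proteins despite their names. Mrps36 belongs to neither subunit and is a component of the 2-oxoglutarate dehydrogenase complex. Another 3 probe sets list a member together with a second gene and were outside the rule.

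The study measured RNA of the ventral prostate of FVB mice aged 8 to 10 weeks on Affymetrix arrays, 51 in all in 13 groups. AKT1-transgenic mice (FVB-AKT1) that received RAD001 gave 5 arrays after 12 h, 4 after 48 h, 3 after 6 d, 4 after 9 d and 6 after 15 d. AKT1-transgenic mice on placebo gave 4, 5, 1, 1 and 7 arrays at the same times, and wild-type mice on placebo gave 4 at 12 h, 4 at 48 h and 3 at 15 d. The design set out to separate markers of exposure to the drug from markers of response to it. The sources used here give neither the promoter that drives the transgene nor the dose, no wild-type mouse received RAD001, and the labels call the arrays of a group biological replicates, so the p-values below measure the spread between those arrays. The tissue carried the prostate secretory gene Pbsn at 1560 to 6714 intensity units and the epithelial keratin gene Krt8 at 1724 to 4896 units on the 42 arrays of 12 h, 48 h and 15 d, with mean levels at percentiles 99.8 and 99.3 of all probe sets. The ventral prostate was measured as bulk tissue, so fewer cells of a type and less RNA per cell cannot be told apart in any of these values.

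Mitochondria keep a small genome that codes for a few membrane subunits of oxidative phosphorylation, and they translate it on ribosomes of their own. The RNA parts of that ribosome come from the mitochondrial genome, whereas all of its proteins are encoded in the nucleus, made in the cytosol and imported. Many of the proteins have bacterial homologues, and the rest were added in the mitochondrial lineage. AKT1 is a kinase upstream of the mTOR complex, RAD001 (everolimus) inhibits that complex, and mTOR is known in cultured mouse and human cells to favour translation of nuclear mRNAs for mitochondrial proteins. An array reads mRNA level, not that translation. The factors NRF1 and GABP are long known as activators of nuclear genes for mitochondrial proteins, and YY1 sites are common in their promoters.

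The promoters of the 6 members with the smallest p for genotype are shown because 4 of these members were higher in transgenic than in wild-type prostates and the other two were lower. Each is a RefSeq window of 300 bases on GRCm38.p6, running from 250 bases before the annotated start to 50 after it, 5′ to 3′ on the strand of the gene, and the capitals mark exact matches on either strand to GCGCANGCG, where N is any base, for NRF1 or to CCGGAAG for GABP. Mrps21 lies on the minus strand at chr3:95871465-95871764, Mrpl18 on the minus strand at chr17:12916042-12916341, Mrpl12 on the plus strand at chr11:120484387-120484686, Mrpl33 on the plus strand at chr5:31613701-31614000, Mrps6 on the plus strand at chr16:92058086-92058385 and Mrpl22 on the plus strand at chr11:58171414-58171713.
Mrps21: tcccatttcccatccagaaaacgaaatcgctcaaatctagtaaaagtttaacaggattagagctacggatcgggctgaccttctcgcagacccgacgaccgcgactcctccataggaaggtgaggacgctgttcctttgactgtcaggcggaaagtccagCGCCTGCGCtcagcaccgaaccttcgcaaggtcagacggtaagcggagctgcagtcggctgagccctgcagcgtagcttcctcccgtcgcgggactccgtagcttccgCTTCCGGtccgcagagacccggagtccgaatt
Mrpl18: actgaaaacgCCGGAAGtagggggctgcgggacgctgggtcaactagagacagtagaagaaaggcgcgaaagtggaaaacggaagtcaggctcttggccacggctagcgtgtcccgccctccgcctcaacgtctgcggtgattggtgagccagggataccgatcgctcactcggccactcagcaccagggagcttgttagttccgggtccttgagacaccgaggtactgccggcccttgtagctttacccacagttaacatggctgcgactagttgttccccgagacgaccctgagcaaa
Mrpl12: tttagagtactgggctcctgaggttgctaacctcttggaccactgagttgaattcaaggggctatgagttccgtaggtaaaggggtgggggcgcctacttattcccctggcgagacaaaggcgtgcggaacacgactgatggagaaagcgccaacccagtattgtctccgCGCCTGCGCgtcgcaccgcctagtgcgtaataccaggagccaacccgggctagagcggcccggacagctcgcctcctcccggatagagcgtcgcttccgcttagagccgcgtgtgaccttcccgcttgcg
Mrpl33: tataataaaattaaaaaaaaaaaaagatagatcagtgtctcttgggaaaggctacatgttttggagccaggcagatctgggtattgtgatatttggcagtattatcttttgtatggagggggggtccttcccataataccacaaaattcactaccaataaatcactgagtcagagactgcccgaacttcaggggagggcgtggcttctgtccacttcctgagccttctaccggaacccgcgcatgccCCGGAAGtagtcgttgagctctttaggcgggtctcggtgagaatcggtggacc
Mrps6: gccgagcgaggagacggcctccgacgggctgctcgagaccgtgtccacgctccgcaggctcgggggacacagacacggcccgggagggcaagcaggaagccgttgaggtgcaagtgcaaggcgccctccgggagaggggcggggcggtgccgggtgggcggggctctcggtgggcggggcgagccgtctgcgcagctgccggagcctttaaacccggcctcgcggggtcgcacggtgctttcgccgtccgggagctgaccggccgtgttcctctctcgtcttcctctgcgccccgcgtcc
Mrpl22: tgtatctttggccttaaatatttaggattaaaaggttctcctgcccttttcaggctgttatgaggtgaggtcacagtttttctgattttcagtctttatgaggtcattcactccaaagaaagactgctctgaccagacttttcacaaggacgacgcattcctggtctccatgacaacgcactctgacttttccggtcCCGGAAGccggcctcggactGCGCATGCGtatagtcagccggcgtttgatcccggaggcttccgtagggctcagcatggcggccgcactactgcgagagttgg
The NRF1 letters stood at bases 161 to 169 of the Mrps21 window, 171 to 179 of Mrpl12 and 218 to 226 of Mrpl22. The GABP letters stood at bases 269 to 275 in Mrps21, 11 to 17 in Mrpl18, 248 to 254 in Mrpl33 and 198 to 204 in Mrpl22, and the window of Mrps6 held none of the 3 motifs. Mrps21 and Mrpl22, which both held the NRF1 and the GABP letters, differed between the genotypes in opposite directions.

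Of the 74 genes, 65 had a RefSeq window, 71 windows in all. The NRF1 letters GCGCANGCG were in 15 of the 71 windows (21.1%), against 6.25% of all 32851 windows. The GABP letters CCGGAAG were in 24 (33.8%, against 8.86%) and the YY1 letters AAGATGGC in 11 (15.5%, against 2.75%), counting both strands. No motif contains another, and at least one of them was in 41 of the member windows (57.7%) and in 16% of all windows. A match of letters describes the window and is not a measured binding site.

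The 15 d arrays fell into 2 sets along the first principal component of the table of 12 h, 48 h and 15 d, which held 26.1% of its variance, and the labels give no batch that matches them. The first set holds placebo transgenic replicates 1 and 2, treated replicates 1 and 2 and all 3 wild-type arrays, and the second set holds the other 5 placebo transgenic and 4 treated arrays. Set and genotype thus overlap largely at 15 d, and the 15 d genotype values below were also computed with the set as a block and without the second set. Without the second set only replicates 1 and 2 of each transgenic group remain at 15 d, so the set and the loss of arrays cannot be told apart there. Placebo transgenic replicates 9 and 8 of 15 d, both of the second set, stood apart as well, with 1092 and 835 values listed at exactly 0, against 38 to 388 on the other arrays of that table.

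In the average of 12 h, 48 h and 15 d, 22 of the 74 genes differed between AKT1-transgenic and wild-type prostates on placebo, 13 of them higher and 9 lower in transgenic mice (limma, Benjamini-Hochberg adjusted p below 0.05 over all 9627 features tested, 16 transgenic against 11 wild-type arrays). That is 29.7% of the members, beside 33.5% of all features, of which 14.2% were higher and 19.2% lower. The members' median log2 difference was -0.05, and that of all features was -0.05. Both the share called and the median were near those of the whole array, and what follows is about the individual members. The 15 d set moved the split of directions: with the set as a block 18 members passed, 7 higher and 11 lower, and without the second set 20 did, 8 higher and 12 lower. The shares of all features in these fits are not given here, so the counts do not set the members apart from the whole array. The 6 members whose promoters are shown kept their calls in both of these fits.

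Mrps6, a small-subunit protein with a bacterial homologue, had the largest called genotype difference of the family. At 12 h its intensity was 401, 395, 481 and 414 in transgenic mice, against 884, 1203, 922 and 809 in wild-type mice. At 48 h it was 406, 506, 375, 431 and 658 in transgenic mice, against 574, 595, 708 and 752 in wild-type mice. The 15 d arrays ran from 200 through a median of 267 to 391 in transgenic mice, against 617, 558 and 627 in wild-type mice. The groups were apart at 12 h and 15 d, and at 48 h the highest transgenic array lay within the wild-type range. Averaged over the times, Mrps6 fell by 0.91 on the log2 scale in transgenic mice (SE 0.11, adjusted p = 5.01e-08), with 15 of 16 transgenic arrays below the wild-type mean of their time.

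Mrps21, another small-subunit protein with a bacterial homologue, differed the other way. Its intensity at 12 h was 673, 664, 555 and 610 in transgenic mice, against 331, 356, 442 and 373 in wild-type mice. At 48 h the transgenic arrays read 624, 545, 558, 557 and 553 and the wild-type arrays 402, 474, 362 and 465. At 15 d the transgenic arrays ran from 407 through 462 to 511, and the wild-type arrays read 341, 326 and 381. No transgenic array overlapped the wild-type arrays at any of the 3 times. The average log2 difference was 0.52 (SE 0.06, adjusted p = 6.96e-08), and all 16 transgenic arrays lay above the wild-type mean.

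Mrpl18 belongs to a protein family that in bacteria binds the small RNA of the large subunit. It read 239, 265, 267 and 243 at 12 h in transgenic mice, against 135, 119, 156 and 168 in wild-type mice, with no overlap. At 48 h the transgenic arrays read 207, 278, 257, 189 and 190, against 223, 218, 179 and 201 in wild-type mice, and here the groups overlapped. At 15 d the transgenic arrays ran from 270 through 331 to 356, all above the wild-type arrays at 231, 262 and 248. The average log2 difference was 0.44 (SE 0.07, adjusted p = 6.66e-06, 14 of 16 arrays above).

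Among the other members that were higher in transgenic mice, Mrpl12, the stalk protein of the large subunit, differed by 0.48 on the log2 scale (SE 0.10, adjusted p = 0.000163) with 16 of 16 arrays above the wild-type mean. Mrpl33, a small large-subunit protein with a bacterial homologue, differed by 0.45 (SE 0.09, adjusted p = 0.000256, 15 of 16 above). Its values were 0.51, -0.006 and 0.83 at 12 h, 48 h and 15 d, and from 12 h and 48 h only it did not pass (limma, 0.25, adjusted p = 0.0871). Mrpl9, whose bacterial homologue reaches out from the side of the large subunit, differed by 0.33 (SE 0.08, adjusted p = 0.00103, 12 of 16 above). Its values were 0.57, 0.30 and 0.12 at 12 h, 48 h and 15 d, and from 48 h and 15 d only it did not pass (limma, 0.21, adjusted p = 0.103). With all probe sets tested apart, the other probe set of Mrpl9 did not pass (limma, 0.12, adjusted p = 0.354). The other log2 differences that passed the test were those of Mrpl13 (0.34), Mrpl54 (0.31), Mrps18c (0.40), Mrpl35 (0.23), Mrpl23 (0.21), Mrps9 (0.21), Mrpl57 (0.18) and Mrpl2 (0.15), with adjusted p between 0.00148 for Mrpl54 and 0.0424 for Mrpl2. Of these Mrpl54 and Mrpl57 have no bacterial homologue, and Mrpl2 and Mrpl23 are counterparts of bacterial proteins near the peptidyl transferase centre and the exit of the peptide tunnel. Some of these calls rest on few arrays: of the 27 fits that left out 1 array, Mrpl2 lost its call in 12, Mrps9 and Mrpl23 in 4 each, Mrps18c in 3 and Mrpl35 in 2. Without the second set of 15 d arrays the calls of Mrps18c (0.18), Mrps9 (0.15), Mrpl2 (0.10), Mrpl57 (0.09) and Mrpl23 (0.06) were lost, and with the set as a block that of Mrpl35 (0.17) was lost too.

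On the lower side Mrpl22, which lines the peptide tunnel in the bacterial ribosome, fell by 0.48 on the log2 scale in transgenic mice (SE 0.10, adjusted p = 0.000336, 15 of 16 arrays below the wild-type mean). Mrps15, a small-subunit protein, fell by 0.28 (SE 0.06, adjusted p = 0.000366, 15 of 16 below), and Mrps28, also of the small subunit, fell by 0.30 (SE 0.08, adjusted p = 0.00401, 14 of 16 below). The other lower members were Mrpl21 (-0.26), Mrps2 (-0.25), Mrpl17 (-0.20), Mrpl15 (-0.18) and Mrps23 (-0.15). Both Mrpl15 and Mrps23 have another probe set called in the opposite direction, and with the mean of their probe sets their log2 differences turned to 0.049 and 0.046. Mrpl21 and Mrpl17 also lost their calls with the mean of their probe sets, at -0.07 and -0.007. Over the 27 fits that left out 1 array, Mrps2 lost its call in 15, Mrps23 in 5 and Mrpl17 in 1, and without the second set of 15 d arrays Mrps2 (-0.15), Mrpl17 (-0.19) and Mrps23 (-0.13) did not pass. The members that did not pass in the average itself ran from -0.54 for Mrps25 to 0.36 for Mrps26, both of which hold arrays listed at exactly 0. Mrpl58, a peptidyl-tRNA hydrolase built into the large subunit, came nearest to the threshold among them at 0.27 (adjusted p = 0.0580). With all probe sets tested apart (limma), another probe set passed in some of these uncalled members. Those were of Mrpl49 (0.43, adjusted p = 3.05e-05), Mrpl3 (-0.66, adjusted p = 0.00110), Mrpl44 (0.22, adjusted p = 0.00228) and Mrps14 (-0.19, adjusted p = 0.00548). The plot of the genotype difference over all 74 genes shows the called members at both ends and a continuous middle.

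**Figure D1:**
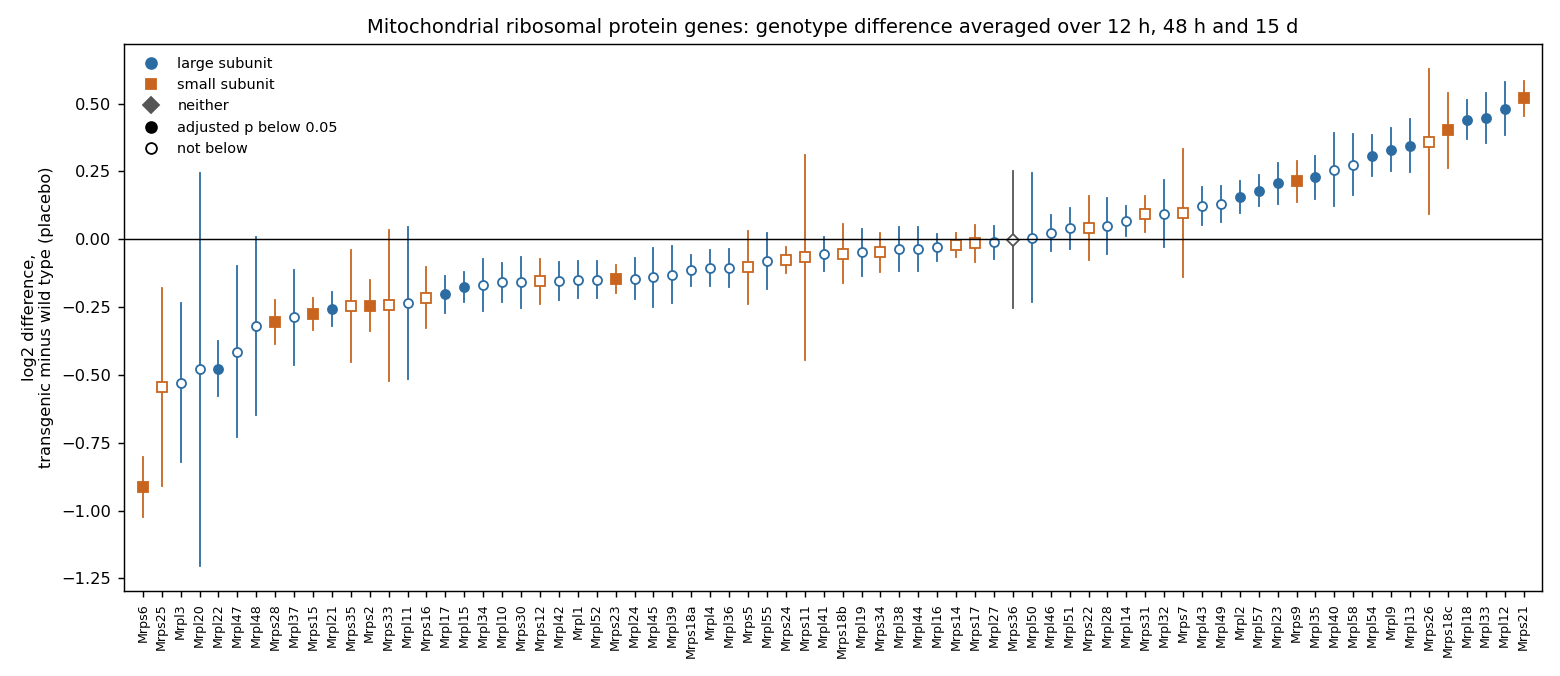
Log2 difference of AKT1-transgenic minus wild-type ventral prostate on placebo, averaged over 12 h, 48 h and 15 d, for each of the 74 genes in order of its value; bars are standard errors, circles are large-subunit proteins, squares small-subunit proteins and the diamond Mrps36, and filled symbols have an adjusted p below 0.05. Mrps6 stands at -0.91 at one end and Mrps21 at 0.52 at the other, with 22 filled symbols in all.

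By subunit, 14 of the 49 large-subunit genes passed the test (10 higher and 4 lower in transgenic mice), and 8 of the 24 small-subunit genes did (3 higher and 5 lower). By origin, 19 of the 43 genes classed with a bacterial homologue passed (44.2%, 11 higher and 8 lower), and 3 of the 31 genes classed without one did (9.68%, 2 higher and 1 lower). The second class is not a clean one. It holds Mrps36, which belongs to neither subunit, and Mrps18a and Mrps18b, whereas Mrps18c of the same name is in the first class. These shares stand beside 33.5% of all features. The split by origin is of the genotype average alone, and the order of the classes was not the same in every comparison. In the F-test for a change of the genotype difference with time, described below, the class without a bacterial homologue had the larger share called. No test of the difference between the classes was made.

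The average hides differences between times, since 29 of the 74 members (39.2%) had the same sign at 12 h, 48 h and 15 d, beside 38.3% of all 9627 features. Of the 22 members called on average 17 did, and the other 5 were Mrpl23, Mrpl33, Mrpl57, Mrps18c and Mrps2. The 3 times have separate arrays. At 12 h 15 members passed the test, 11 higher and 4 lower in transgenic mice (20.3% of members, beside 20.6% of all features, with 9.62% higher and 11.0% lower). At 48 h 22 passed, 4 higher and 18 lower (29.7%, beside 26.6% of all features, of which 12.2% were higher and 14.4% lower). At 15 d 15 passed, 8 higher and 7 lower (20.3%, beside 19.9% of all features, with 9.07% higher and 10.9% lower). Single arrays moved these counts: the 12 h count was 9 without wild-type replicate 4 or transgenic replicate 1 of 12 h. With the 15 d set as a block the 15 d count was 2, Mrps6 at -0.87 and Mrpl57 at 0.37, and without the second set it was 1, Mrps35 at -0.57. The 15 d count was 5 without wild-type replicate 1, 8 without wild-type replicate 3 and 27 without transgenic replicate 2 of 15 d. The shares of all features in these fits are not given here.

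The 48 h contrast was the one in which most called members were lower in transgenic mice. The members' median log2 difference there was -0.13, that of all features 0.00, and 13 of the 24 small-subunit genes passed the test (3 higher and 10 lower), against 9 of the 49 large-subunit genes (1 higher and 8 lower). Among the small-subunit genes lower at 48 h were Mrps28 (log2 difference -0.58, adjusted p = 0.00197), Mrps12 (-0.50, adjusted p = 0.00776), Mrps17 (-0.41, adjusted p = 0.00805) and Mrps16 (-0.61, adjusted p = 0.0147). Mrps12 is the counterpart of a bacterial protein of the decoding site. Large-subunit members lower at 48 h included Mrpl39 (-0.69, adjusted p = 0.00403), Mrps30 (-0.63, adjusted p = 0.00341) and Mrpl34 (-0.62, adjusted p = 0.00430). The small-subunit members Mrps21 (0.42), Mrps9 (0.39) and Mrps31 (0.34) were higher at the same time. Leaving out wild-type replicate 1 or 2 of 48 h lowered the count of 22 to 13 or 14. Between 12 h and 48 h no member differed in placebo transgenic mice, beside 0% of all features. In wild-type mice 19 did, 17 of them higher at 48 h (25.7%, beside 17.1% of all features). These time contrasts share their arrays with the genotype comparisons.

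The genotype difference changed with time in 18 members (24.3% of 74) by an F-test of the interaction, beside 20.4% of all features. The count was 8 with the 15 d set as a block or without its second set, and the shares of all features in those fits are not given here. Mrps18c, a small-subunit protein, had the smallest p (adjusted p = 0.00264). At 12 h its intensity was 110, 99, 96 and 162 in transgenic mice, against 73, 63, 72 and 49 in wild-type mice. At 48 h it was 134, 94, 89, 83 and 80 in transgenic mice, against 170, 148, 98 and 172 in wild-type mice. At 15 d it ran from 143 through 285 to 399 in transgenic mice, against 107, 168 and 130 in wild-type mice. The groups were apart at 12 h and overlapped at 48 h and 15 d. It was higher in transgenic mice at 12 h (log2 difference 0.85, SE 0.24, adjusted p = 0.0115), lower at 48 h (-0.61, SE 0.23, adjusted p = 0.0492) and at 0.97 at 15 d (SE 0.24, adjusted p = 0.00482). The 15 d value rests on the second set, whose transgenic arrays read 267 to 399, while those of the first set read 183 and 143. Without the second set the 15 d difference was 0.29 (SE 0.26, adjusted p = 0.737), with the set as a block 0.41 (SE 0.22, adjusted p = 0.360), and the adjusted p for a change with time stayed at 0.00835 and 0.00314 in these fits.

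Mrpl40, a large-subunit protein without a bacterial homologue, followed the same order of signs, with log2 differences of 0.65, -0.56 and 0.68 at 12 h, 48 h and 15 d (adjusted p = 0.00838 for the change with time). Mrps2, a small-subunit protein, ran opposite to it with -0.62, 0.38 and -0.50 (adjusted p = 0.00485). Mrpl4, which reaches into the peptide tunnel in bacteria, had -0.09, 0.29 and -0.52 (adjusted p = 0.00379), and Mrpl57 had 0.10, -0.09 and 0.52 (adjusted p = 0.00764). All 5 kept an adjusted p below 0.05 when any single array was left out, whereas the number of members called for a change with time lay between 10 and 26 over those fits and was 10 without wild-type replicate 1 of 15 d. Without the second set of 15 d arrays the 15 d differences were 0.26 for Mrpl40, -0.20 for Mrps2, -0.22 for Mrpl4 and 0.26 for Mrpl57. The change with time then still passed for Mrpl40 (adjusted p = 0.0393), Mrps2 (adjusted p = 0.0180) and Mrpl4 (adjusted p = 0.0355) and not for Mrpl57 (adjusted p = 0.129).

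**Figure D2:**
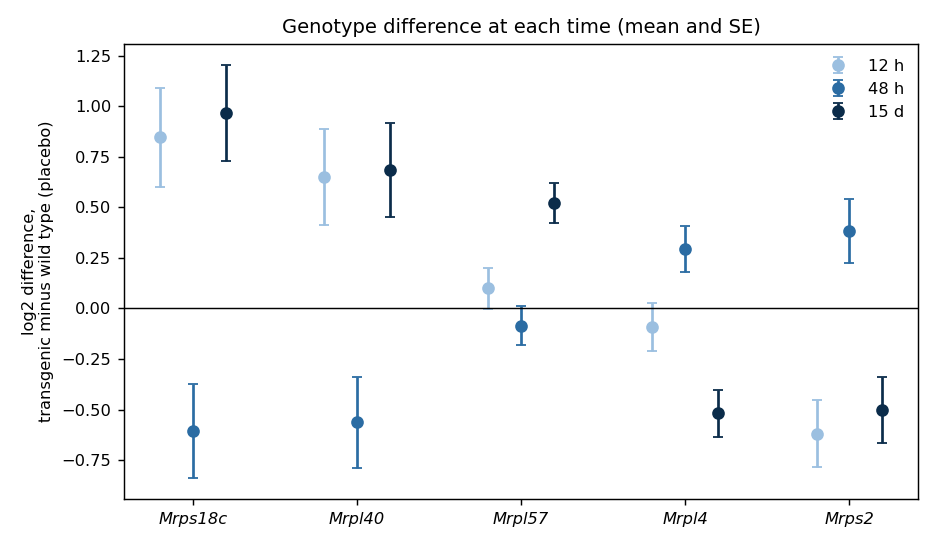
Log2 difference of AKT1-transgenic minus wild-type ventral prostate on placebo at 12 h, 48 h and 15 d for the 5 members with the smallest p for a change with time; points are fitted means and bars standard errors. Mrps18c and Mrpl40 lie above 0 at 12 h and 15 d and below it at 48 h, while Mrps2 does the reverse. At 15 d 5 of the 7 transgenic arrays and none of the wild-type arrays belong to the second set.

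The marker genes of other cell types moved with genotype too. Summed over 12 smooth muscle markers, the 12 h arrays gave 6565 to 8797 intensity units in transgenic mice and 13210 to 16697 in wild-type mice, and 13 luminal epithelial markers gave 28037 to 31775 units in transgenic mice and 19815 to 22422 in wild-type mice. In the genotype average 14.2% of all features were higher and 19.2% lower in transgenic mice. Beside these shares 9 of 11 tested smooth muscle markers and 6 of 9 fibroblast markers were lower in transgenic mice, and 4 of 5 basal epithelial markers were lower, among them Trp63 (-0.74) and Krt5 (-0.49). Of the luminal markers 7 of 13 were higher and 1 lower, of the 2 endothelial markers tested Cdh5 was higher (0.94), and no macrophage or lymphocyte marker passed the test. No marker of these lists was at the floor on most arrays of these times, counted over all groups at once and not group by group. Their part in the members' differences was not tested.

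At 12 h 3 of the 74 members were lower in RAD001-treated than in placebo transgenic mice and none was higher at an adjusted p below 0.05 (4.05%, beside 1.48% of all features called, 0.644% higher and 0.831% lower). The members' median log2 difference was -0.10 with 55 of 74 values below 0, beside a median of 0.02 with 4444 of 9627 values below 0 for all features. At an unadjusted p below 0.05 there were 16 members. Mrps14, the small-subunit counterpart of a bacterial head protein, read 473, 490, 477, 470 and 500 in RAD001-treated mice, against 601, 567, 658 and 625 in placebo mice. The groups did not overlap, and the spread among the treated arrays was narrow. Its log2 difference was -0.34 (SE 0.08, adjusted p = 0.0156, 5 of 5 treated arrays below the placebo mean).

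Mrps21 at 12 h read 561, 460, 462, 345 and 501 with RAD001, against 673, 664, 555 and 610 with placebo, so that the highest treated array passed the lowest placebo array. Its log2 difference was -0.44 (SE 0.11, adjusted p = 0.0293). Mrpl36, a very small large-subunit protein, read 367, 369, 312, 305 and 416 with RAD001, against 540, 481, 508 and 423 with placebo, without overlap. Its log2 difference was -0.47 (SE 0.12, adjusted p = 0.0378). Both calls were lost in 6 of the 9 fits that left out 1 array of the compared groups, with adjusted p up to 0.119 for Mrps21 and 0.151 for Mrpl36. Mrps14 kept its call in all 9 (highest adjusted p 0.0490), although the second probe set of this gene gave a log2 difference of 0.09 at 12 h. The count of 3 was 1 without placebo replicate 1 or 2, or without treated replicate 2, 3 or 4. In a fit of the compared groups alone none of the 74 passed, and with array weights 9 did. The next members, Mrpl42 (-0.43, adjusted p = 0.0549), Mrpl35 (-0.43, adjusted p = 0.0924) and Mrpl54 (-0.41, adjusted p = 0.0999), did not pass the test, with 5 of 5 treated arrays below the placebo mean in each.

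At 48 h no member passed the test for RAD001 (limma, 0 of 74, beside 3.54% of all features, 2.02% higher and 1.53% lower), and 8 had an unadjusted p below 0.05. The medians were 0.01 for the members and 0.00 for all features. Mrpl9 came nearest, with 404, 385, 385 and 339 in treated mice, against 476, 540, 528, 411 and 612 in placebo mice. These groups did not overlap, and the log2 difference was -0.43 (SE 0.13, adjusted p = 0.0564). Mrpl22 read 333, 411, 248 and 313 in treated mice, against 240, 254, 190, 242 and 198 in placebo mice, a log2 difference of 0.52 (SE 0.17, adjusted p = 0.0818) with 1 treated array inside the placebo range. Mrps14 was at 486, 568, 557 and 571 with RAD001, against 599, 684, 614, 594 and 616 with placebo, without overlap and at a log2 difference of -0.19 (SE 0.08, adjusted p = 0.180). Mrps18c (0.57), Mrps2 (-0.37) and Mrpl12 (-0.38) had adjusted p between 0.183 and 0.218. Leaving out placebo replicate 4 brought Mrpl9 to an adjusted p of 0.0365, and leaving out treated replicate 4 brought Mrpl22 to 0.0486.

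By 15 d of RAD001 6 members passed the test, 1 higher and 5 lower in treated mice (8.11%, beside 5.78% of all features, of which 2.51% were higher and 3.26% lower). Mrpl57, a large-subunit protein without a bacterial homologue, ran from 421 through a median of 480 to 586 in treated mice, against 515, 675 and 720 as lowest, median and highest in placebo mice. Its log2 difference was -0.35 (SE 0.08, adjusted p = 0.00523). Mrps6 ran from 328 through 426 to 660 in treated mice, against 200, 267 and 391 in placebo mice, a log2 difference of 0.65 (SE 0.16, adjusted p = 0.00843). Mrpl33 ran from 206 through 251 to 282 in treated mice, against 241, 359 and 472 in placebo mice, a log2 difference of -0.50 (SE 0.13, adjusted p = 0.0157). In each of these 3 the ranges overlapped while all 6 treated arrays lay on one side of the placebo mean, and the calls held in every fit that left out 1 array of the compared groups. Without both placebo replicates 8 and 9, which hold many exact zeros, Mrpl57 passed (-0.29, adjusted p = 0.0468), while Mrps6 (0.49, adjusted p = 0.0819) and Mrpl33 (-0.38, adjusted p = 0.115) did not, and the count of 6 was 1.

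The other 3 members lower at 15 d of RAD001 were Mrps21 (log2 difference -0.31, adjusted p = 0.0283), Mrpl13 (-0.46, adjusted p = 0.0361) and Mrpl9 (-0.35, adjusted p = 0.0463). They lost the call in 4, 7 and 8 of the 13 fits that left out 1 array. The count of 6 was 3 without placebo replicate 9 or without treated replicate 1, and 1 in a fit of the compared groups alone or with array weights. Larger fitted differences of Mrpl47 (1.20, adjusted p = 0.109) and Mrpl3 (1.07, adjusted p = 0.124) did not pass the test and rest on placebo arrays listed at exactly 0, which were raised to the floor of 16 units.

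**Figure D3:**
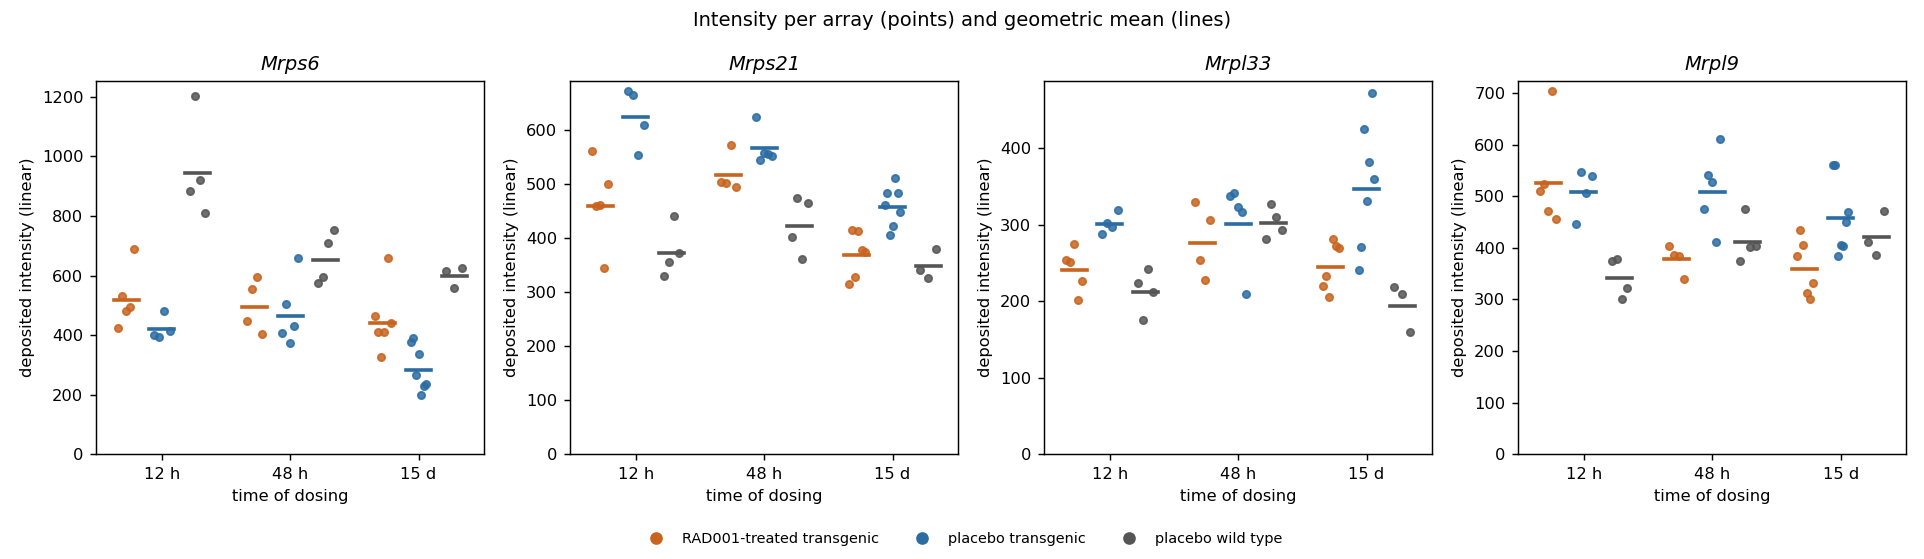
Intensity (linear axis from 0) of Mrps6, Mrps21, Mrpl33 and Mrpl9 on each array at 12 h, 48 h and 15 d in RAD001-treated transgenic, placebo transgenic and wild-type mice, in that order from the left; points are arrays and lines geometric means. Mrps6 is lowest in placebo transgenic mice at 15 d, where its 7 arrays run from 200 to 391 units, against 558 to 627 in wild-type mice.

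Both 15 d sets hold treated and placebo transgenic arrays. With the set as a block the 6 members kept their calls, at log2 differences of -0.34 for Mrpl57, 0.63 for Mrps6, -0.48 for Mrpl33, -0.32 for Mrps21, -0.46 for Mrpl13 and -0.37 for Mrpl9. Within the first set, with 2 treated and 2 placebo arrays, the same values were -0.12, 0.19, -0.18, -0.39, -0.52 and -0.46 and none passed the test. Within the second set they were -0.44, 0.83, -0.61, -0.28, -0.43 and -0.33, and Mrpl57, Mrps6 and Mrpl33 passed.

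Several of these members also differed by genotype in the other direction, but the 2 comparisons share the placebo transgenic arrays, so their values are only set side by side. At 15 d the RAD001 and genotype log2 differences were 0.65 and -1.09 for Mrps6, -0.31 and 0.40 for Mrps21, -0.50 and 0.83 for Mrpl33, and -0.35 and 0.52 for Mrpl57. Without the second set, which holds no wild-type array, the genotype differences were -0.64 for Mrps6, 0.44 for Mrps21, 0.40 for Mrpl33 and 0.26 for Mrpl57, and none of these passed the test. The comparison of RAD001-treated transgenic with wild-type mice uses no placebo transgenic array, though it shares its treated and wild-type arrays with the others. At 15 d no member passed it (limma, 0 of 74, beside 1.49% of all features, 0.738% higher and 0.748% lower, with 13 members at an unadjusted p below 0.05), and Mrps6 stood at -0.44 (SE 0.20, adjusted p = 0.205), Mrpl33 at 0.34 (SE 0.16, adjusted p = 0.247), Mrpl57 at 0.17 (SE 0.10, adjusted p = 0.362) and Mrps21 at 0.08 (SE 0.11, adjusted p = 0.751). The count was 6 without treated replicate 1, 2 without treated replicate 2, and 0 with the 15 d set as a block or without the second set.

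At 12 h 10 members differed between RAD001-treated transgenic and wild-type mice, 5 higher and 5 lower in treated mice (13.5%, beside 17.0% of all features, 8.70% higher and 8.31% lower). They included Mrps6 (-0.87, adjusted p = 0.00115), Mrpl9 (0.62, adjusted p = 0.000926), Mrpl18 (0.55, adjusted p = 0.00113) and Mrpl15 (-0.44, adjusted p = 0.000901), and Mrps21 at 0.30 (adjusted p = 0.0489) with 4 of 5 treated arrays above the wild-type mean. At 48 h 11 members were lower in treated mice and none higher (14.9%, beside 13.3% of all features, 6.62% higher and 6.72% lower). The lowest p belonged to Mrpl32 (-0.93, adjusted p = 0.00482), Mrps28 (-0.58, adjusted p = 0.00848) and Mrpl34 (-0.67, adjusted p = 0.00850). That count was between 6 and 10 with 1 array left out, at 6 without wild-type replicate 3 and at 7 without wild-type replicate 2 or 4 or treated replicate 2.

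The arrays of 6 d and 9 d came in a table of their own, on another Affymetrix platform than the 42 arrays of the larger table, and no array is shared with the other times. Treated replicate 1 of 6 d and treated replicate 3 of 9 d held 812 and 561 values at exactly 0, against 1 to 348 on the other arrays of this table. No member passed the test for RAD001 over these days (limma, 0 of 74, beside 0.888% of 9345 features, with 3 members at an unadjusted p below 0.05 and 1 placebo array a day). Mrpl9 at 6 d read 339, 307 and 327 in treated mice, against 456 in the placebo mouse, and at 9 d it read 298, 258, 284 and 305, against 418. All 7 treated arrays lay below the placebo array of their day, at a log2 difference of -0.52 (SE 0.12, adjusted p = 0.108). Mrps6 read 426, 363 and 536 in treated mice at 6 d, against 345 in the placebo mouse, and 540, 475, 403 and 404 at 9 d, against 285. All 7 treated arrays lay above the placebo array of their day, at 0.50 (SE 0.18, adjusted p = 0.360).

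Mrpl51, a large-subunit protein without a bacterial homologue, read 742, 722 and 736 in treated mice at 6 d, against 544 in the placebo mouse, and 665, 737, 580 and 731 at 9 d, against 601. Its log2 difference was 0.30 (SE 0.11, adjusted p = 0.407). Mrps33 (0.33), Mrpl27 (-0.29) and Mrpl52 (0.36) came next. The other members called at 12 h or 15 d had log2 differences at 6 d and 9 d of -0.13 for Mrpl57, 0.19 for Mrpl33, 0.09 for Mrps21, 0.17 for Mrpl13, -0.15 for Mrps14 and -0.03 for Mrpl36, none of which passed the test. With 6 d or 9 d taken alone no member passed either, beside 0.150% and 0.300% of features.

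**Figure D4:**
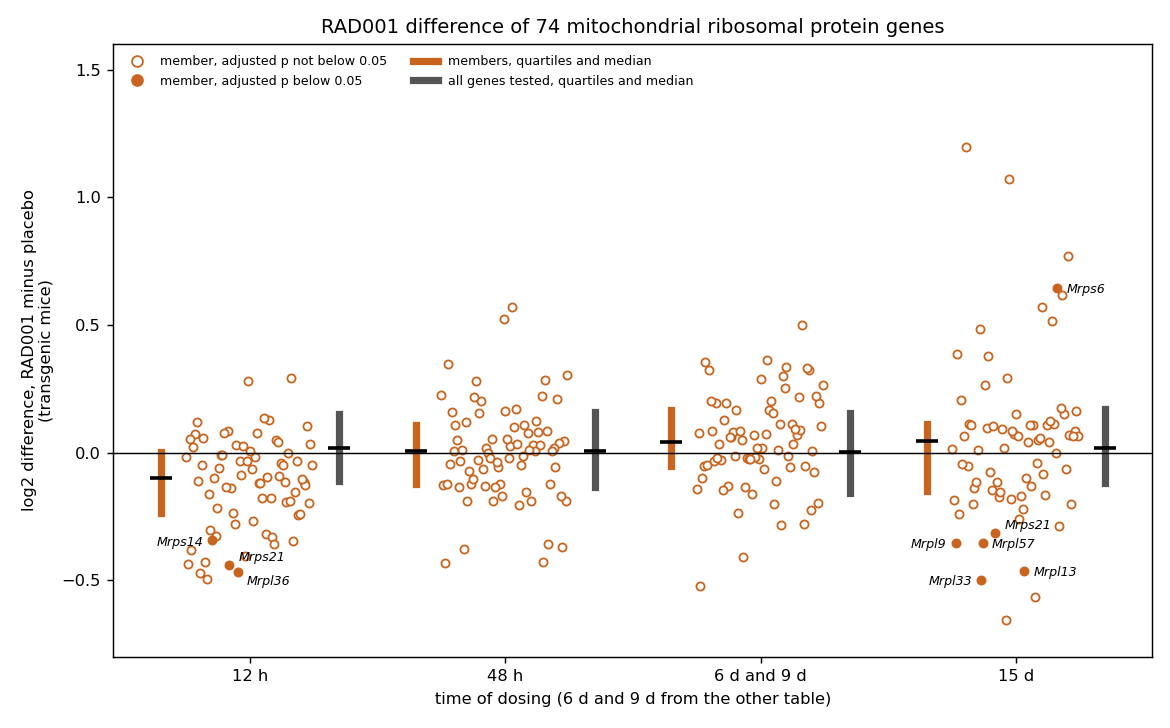
Log2 difference of RAD001-treated minus placebo transgenic ventral prostate for the 74 members at 12 h, 48 h, 6 d with 9 d, and 15 d; filled and labelled points have an adjusted p below 0.05, and bars give the quartiles and median of the members (left) and of all features (right). The members' median is -0.10 at 12 h, beside 0.02 for all features, and 3 points are labelled at 12 h and 6 at 15 d.

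Whether the RAD001 difference changed between 12 h, 48 h and 15 d was tested with an F-test, which no member passed (0 of 74, beside 0.499% of features, with 9 members at an unadjusted p below 0.05). The lowest adjusted p were 0.162 for Mrps14, 0.177 for Mrpl42 and 0.251 for Mrpl36. The members called at 12 h and not at 15 d, such as Mrps14 and Mrpl36, are thus not shown to respond differently at those times.

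Marker genes also moved with RAD001. The smooth muscle sum at 12 h was 9585 to 13871 units in treated mice and 6565 to 8797 in placebo transgenic mice, and at 15 d it was 9009 to 12281 units in treated mice and 5786 to 9469 in placebo transgenic mice. The luminal sum at 12 h was 22490 to 29498 units in treated mice and 28037 to 31775 in placebo transgenic mice. Of all features 0.644%, 2.02% and 2.51% were higher with RAD001 at 12 h, 48 h and 15 d, and 0.831%, 1.53% and 3.26% were lower. Over 6 d with 9 d 1 of 9 fibroblast markers was higher, beside 0.332% of all features, and no marker of the other lists was called. Of the smooth muscle markers tested 1 of 11 was higher at 12 h, 2 of 11 at 48 h and 4 of 11 at 15 d with RAD001, and of 9 fibroblast markers 1 was higher at 48 h and 2 at 15 d. Of 5 basal markers 2 were higher at 48 h and 1 at 15 d, of 13 luminal markers 1 was lower at 12 h and 2 were lower at 48 h and at 15 d, and 1 of 7 macrophage markers was higher at 15 d. Their part in the members' differences was not tested.

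Within a genotype the members also varied with time. In wild-type mice 19 members differed between 48 h and 12 h, 17 of them higher at 48 h (25.7%, beside 17.1% of all features, 8.64% higher and 8.50% lower), with a members' median of 0.20 and a median of -0.01 over all features. Mrpl40 (log2 difference 1.21, adjusted p = 0.000783), Mrps18c (1.18, adjusted p = 0.00139) and Mrpl18 (0.51, adjusted p = 0.00496) were higher at 48 h and Mrps2 (-0.77, adjusted p = 0.00207) was lower. With each array centred on its median the count was 12, of which 9 were higher, and with 1 wild-type array left out it was between 8 and 17, at 8 without replicate 2 of 12 h, 9 without replicate 2 of 48 h and 12 without replicate 1 of either time. In placebo transgenic mice no member differed between 48 h and 12 h (limma, 0 of 74, beside 0% of features, with 1 member at an unadjusted p below 0.05), nor did any in RAD001-treated mice (0 of 74, beside 0% of features, with 14 members at an unadjusted p below 0.05).

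Between 15 d and 48 h 22 members passed the test in RAD001-treated mice, 12 higher and 10 lower at 15 d (29.7%, beside 31.1% of features), and in placebo transgenic mice 37 did, 19 higher and 18 lower (beside 48.0% of features). Mrps18c was 1.46 higher on the log2 scale at 15 d in placebo transgenic mice, whereas Mrpl16 was at -0.55 in treated and -0.54 in placebo transgenic mice. With the 15 d set as a block these counts were 11 in treated and 15 in placebo transgenic mice. Without the second set they were 5 and 10, with Mrps18c at 0.78 and Mrpl16 at -0.70 and -0.52. That fit keeps only replicates 1 and 2 of each transgenic group at 15 d, so the set and the loss of arrays cannot be told apart. The shares of all features in these fits are not given here. In wild-type mice 2 members passed, Mrpl57 and Mrpl54, each at -0.52 (2.70%, beside 1.82% of features). Leaving out any single wild-type array of these times left 1 call of the 2, and the count in treated mice was 12 without RAD001 replicate 2 of 48 h. Between 9 d and 6 d of RAD001 no member passed (limma, 0 of 74, beside 0% of features, with 2 at an unadjusted p below 0.05).

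The rest of the mitochondrial translation machinery was read from lists of genes with other names. In the genotype average 33.5% of all features were called, 14.2% higher and 19.2% lower, and the counts below stand beside these shares. Of 4 other ribosomal proteins 1 was lower and none higher in transgenic mice, namely Ptcd3 (-0.35, adjusted p = 0.000221), a small-subunit protein. Of 10 translation factors 2 were lower, the initiation factor gene Mtif2 (-0.34, adjusted p = 0.000122) and the peptide deformylase gene Pdf (-0.21, adjusted p = 0.0153). Of 14 assembly factors tested 2 were higher and 3 lower, the lower ones including the GTPase gene Mtg2 (-0.54, adjusted p = 2.70e-05) and the large-subunit assembly factor gene Mterf3 (-0.46, adjusted p = 0.000430) and the higher ones were the ribosomal RNA methyltransferase gene Mrm3 (0.26, adjusted p = 0.000553) and the pseudouridine synthase gene Rpusd4 (0.25, adjusted p = 0.0173). Of 8 mitochondrial aminoacyl-tRNA synthetases 2 were lower, Rars2 (-0.30) and Fars2 (-0.20), and of 10 genes of mitochondrial DNA upkeep and transcription 2 were lower, Polg2 (-0.31) and Polg (-0.19). None of these genes passed the test for RAD001 at 12 h, 48 h, 15 d or 6 d with 9 d.

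Oxidative phosphorylation subunits and import factors showed both directions, as the ribosomal proteins did. In the genotype average 6 of 43 nuclear oxidative phosphorylation genes were higher and 5 lower in transgenic mice, beside 14.2% and 19.2% of all features. Among them were Cox6b1 (0.31, adjusted p = 0.000123) and Sdhb (-0.36, adjusted p = 3.41e-07). Of 20 import and chaperone genes 3 were higher and 6 lower, with Timm17a, a subunit of the inner membrane translocase, at 0.41 (adjusted p = 1.04e-06). With RAD001 at 12 h 2 of the 43 oxidative phosphorylation genes were lower (beside 0.831% of all features), Ndufs8 (-0.41, adjusted p = 0.0237) and Uqcrb (-0.29, adjusted p = 0.0351), and the list's median was -0.14. At 48 h 1 was lower (beside 1.53% of all features), Uqcrfs1 (-0.46, adjusted p = 0.0109). At 15 d 3.26% of all features were lower and 2.51% higher. Of the oxidative phosphorylation genes 4 were then lower and 1 higher, with Cox6b1 at -0.37 (adjusted p = 0.00523) and Ndufv1 at 0.28 (adjusted p = 0.0295). Of the import genes Timm17a was lower (-0.36, adjusted p = 0.00591) and Timm17b higher (0.34, adjusted p = 0.0271).

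The RAD001 and genotype values of these genes again share placebo transgenic arrays. Among nuclear regulators of mitochondrial genes, Myc, which encodes a transcription factor of cell growth, was lower in transgenic than wild-type mice in the average (-0.22, SE 0.06, adjusted p = 0.00830) and higher with RAD001 at 12 h (0.42, SE 0.11, adjusted p = 0.0405) and 15 d (0.43, SE 0.09, adjusted p = 0.00302). The mRNA of Nrf1, which encodes the factor whose letters were counted above, was lower with RAD001 at 15 d (-0.43, SE 0.12, adjusted p = 0.0228), and its genotype difference of 0.21 did not pass the test (adjusted p = 0.0598). Tfam, Ppargc1a, Gabpa, Esrra and Yy1, the elongation factor gene Tufm and the ribosomal protein gene Dap3 passed in none of the genotype average and the 4 RAD001 comparisons that tested them. Levels of these mRNAs say nothing of the activity of the factors.

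The members' deviations from their group means correlated weakly with each other. The mean pairwise correlation was 0.05 over the 42 arrays of the larger table, beside 0.01 for all features and 0.06 among oxidative phosphorylation genes. Over 7 arrays of the smaller table, among them those with 812 and 561 exact zeros, it was 0.13, beside 0.00 for all features. These values are descriptions of arrays that share normalization.

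Probe sets of one gene did not always go the same way. Of 23 members with more than 1 tested probe set, 11 had probe sets of both signs in the genotype average and 11 had probe sets on both sides of the threshold. In Mrpl15 the probe sets ran from -0.18 to 0.17 and in Mrps23 from -0.15 to 0.24, with a call in each direction. Mrpl17 ran from -0.20 to 0.19 and Mrpl21 from -0.26 to 0.12, whereas all probe sets of Mrpl9 (0.12 to 0.33), Mrpl13 (0.13 to 0.34), Mrps2 (-0.25 to -0.09) and Mrps15 (-0.51 to -0.28) had one sign. In the RAD001 comparisons between 7 and 11 members had probe sets of both signs, and at 15 d the probe sets of Mrpl13 ran from -0.46 to -0.20 and those of Mrpl9 from -0.35 to -0.14. Mrps6, Mrps21, Mrpl18, Mrpl12, Mrpl22 and Mrpl33 were each read by a single tested probe set.

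Exact zeros touched 13 members in the larger table, 26 values in all, and 1 member in the smaller one. Mrpl20 was listed at 0 on 6 arrays and read 551 to 1371 on the others, Mrps25 on 4 and Mrps11 on 3. For 10 of the 13 members every other value lay above 100 units. Of the 26 zeros 24 were on 15 d arrays, 9 of them on placebo transgenic replicate 9. A 0 beside such values can be a failed estimate. No group was at 0 throughout for a member, and in the fits each 0 was raised to the floor of 16 units, so the fitted differences of these members depend on that floor.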

How the data were processed

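RNA of ventral prostate was measured on 51 Affymetrix arrays. The values are linear intensity per probe set as the authors deposited them, in a table of 42 arrays (12 h, 48 h, 15 d) and one of 9 (6 d, 9 d); the summarisation and scaling are not given in the sources used here. Median intensity per array was 91.6 to 109.3 in the larger table and 98.1 to 110.4 in the smaller; precision is limited by how many arrays a group has. The tables were tested apart.

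Intensities below 16 were raised to 16 and taken to log2. Probe sets whose mean lay below the 40th percentile of their table were left out, which kept all 74 members in both tables (104 and 102 of 127 probe sets), and the probe set with the highest mean stood for each gene, or for itself where it has no single symbol. One mean per group was fitted over all arrays of a table with limma 3.58.1 in R 4.3.3 (empirical Bayes variances that follow the mean level). Adjustment was by Benjamini-Hochberg over all features. Genotype was compared on placebo, with its average over 12 h, 48 h and 15 d and F-tests for changes with time. The procedure was tested on simulated data.

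The members, lists and tests were chosen with earlier results of these data known. Named are up to 12 called members per direction with the smallest p (the 6 smallest where fewer than 6 were called), the 5 smallest of each F-test, the 4 smallest of each time contrast and up to 4 genes of each companion list, with members whose probe sets disagree and 9 regulators. Mrpl2, members without a call and members from contrasts at single times were named beyond that rule, chosen after their values were seen. Alternatives covered the filter, floor, normalization, probe set choice, array weights, arrays left out and replicate numbers. The deviations of same-numbered arrays correlated from -0.25 to 0.48. The highest values, 0.39 and 0.48, were of treated and placebo replicates 1 and 2 of 15 d, all of the first 15 d set. There the best match carried the other number, so the arrays were not taken as pairs.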

Additional observations from a re-analysis of the deposited data

Results flagged for a closer look

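Among 90 groups of 4 to 7 arrays, 9 for each of 10 members, 9 held an array that stood far from the rest of its group, and chance alone gives about 1 in 20. Mrpl22 read 172 on treated replicate 4 of 12 h, where the other treated arrays read 313 to 352. Mrpl33 read 210 on placebo transgenic replicate 5 of 48 h, where the others read 317 to 342. Mrpl51 read 358 on wild-type replicate 2 of 12 h, where the others read 574 to 597. On placebo transgenic replicate 2 of 48 h Mrpl57 read 675, where the others read 546 to 572, and Mrps14 read 684, where the others read 594 to 616. Mrps14 read 486 on treated replicate 1 of 48 h, where the others read 557 to 571. Mrps21 read 624 on placebo transgenic replicate 1 of 48 h, where the others read 545 to 558, and 573 on treated replicate 4 of 48 h, where the others read 496 to 504. Mrpl57 read 401 on treated replicate 1 of 9 d, where the others read 532 to 533.

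The genotype difference changed over 12 h, 48 h and 15 d by the F-test of the interaction in Mrps18c (adjusted p = 0.00264), Mrpl4 (0.00379), Mrps2 (0.00485), Mrpl57 (0.00764) and Mrpl40 (0.00838).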

How the results depend on the processing

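All counts here are of member genes called unless probe sets are named, and the shares of all features in the same fits are not given. With 1 array left out, the genotype count was 19 to 24 on average, 9 to 16 at 12 h, 13 to 22 at 48 h and 5 to 27 at 15 d, and 10 to 26 for its change with time. The RAD001 count was 1 to 4 at 12 h, 0 to 1 at 48 h and 3 to 8 at 15 d, and 0 for its change with time and for 6 d with 9 d. Treated transgenic against wild-type mice gave 7 to 10 at 12 h, 6 to 10 at 48 h and 0 to 6 at 15 d. Between 48 h and 12 h the range was 8 to 17 in wild-type mice and 0 in both transgenic groups. Between 15 d and 48 h it was 12 to 28 in treated, 29 to 41 in placebo transgenic and 1 in wild-type mice.

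For RAD001 at 48 h, 1 member was called with the filter at the 60th percentile, with quantile normalization, with the replicate number as a block and with exact zeros as missing, and 2 with array weights. At 12 h 9 were called with array weights (1 higher, 8 lower) and 0 in a fit of the compared groups only. At 15 d 1 was called with array weights, the replicate block, the compared groups only or without arrays holding over 500 zeros, 0 within the first 15 d set and 3 within the second. The genotype average had 14 from 48 h and 15 d only, and 14 higher and 6 lower with each array centred on its median. The genotype count at 15 d was 1 without the second set and 2 with the set as a block. Between 15 d and 48 h the count was 15 in placebo transgenic and 11 in treated mice with the set as a block, and 10 and 5 without the second set. The change of the genotype difference with time had 29 of 104 member probe sets called with all probe sets tested apart, a count of probe sets and not of genes. Its count of members was 4 with the replicate block and 8 with the 15 d set as a block or without the second set. Treated transgenic against wild-type mice had 2 at 15 d with exact zeros as missing, and at 12 h 3 higher and 6 lower with median centring. Wild-type mice had 12 at 48 h against 12 h with median centring, and at 15 d against 48 h 1 with median centring and 4 with zeros as missing. With the mean of all probe sets of a gene, the genotype differences of Mrpl15 and Mrps23 were 0.049 and 0.046 in place of -0.18 and -0.15. In the same fit those of Mrpl21 and Mrpl17 were -0.07 and -0.007 and did not pass. The cause of these changes was not tested. The replicate block changed no other count by over 1.5 times. The alternatives on exact zeros and 15 d sets were chosen after seeing the data.

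Mrps6, Mrps21, Mrpl18, Mrpl12, Mrpl22 and Mrps28 kept their genotype call under all 16 alternatives. Mrps15 and Mrpl13 kept theirs under the 15 that gave them a single value. With all probe sets tested apart (limma), the other probe set of Mrps15 (adjusted p = 0.112) did not pass. Neither did the other probe sets of Mrpl13 (adjusted p = 0.159 and 0.371). Mrps14 lost its RAD001 call at 12 h with the mean of its probe sets and with the compared groups only. A covariate for RNA quality was not run, since the tables used here hold no control probe sets, and leaving out the lone placebo array of 6 d or 9 d gives no fit. Differences this small relative to the spread between arrays, with 3 to 7 arrays a group and 1 placebo array a day at 6 d and 9 d, limit what can be called, and probe sets that disagree limit what a call says of a gene.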
